A study of Mus musculus with 10 samples.

Results

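The Mir465 and Mir871 cluster is a group of 10 microRNA hairpins close together on the mouse X chromosome (Mir465, Mir465b-1, Mir465b-2, Mir465c-1, Mir465c-2, Mir871, Mir470, Mir741, Mir880 and Mir881), out of 1174 hairpins of the annotation that were counted. Members were chosen by name, with the knowledge that several of them stood higher in mPGCLCs than in non-PGCLC cells of the E14 and BG5 lines, so that contrast is described below without a test. Small RNA had been sequenced from mouse primordial germ cell-like cells (mPGCLCs), sorted on Day 6 from embryoid bodies made from embryonic stem cells, and from the non-PGCLC cells that surround them in such bodies. The 10 libraries form 5 groups of 2 replicates. mPGCLCs came from E14 (129/Ola strain, no reporter) and BG5 (C57BL/6J/DBA/129 mixed background, Blimp1-GFP reporter), and non-PGCLC cells came from E14, BG5 and SGET (B6CBA/129 mixed background, Stella-GFP and Esg1-tdTomato reporters). All lines are male, each group rests on 1 stem cell line, and by the study's methods the mPGCLC gates differed between lines (Ssea1 with Cd61 in E14, Ssea1 with Blimp1-GFP in BG5), so line, strain and gate cannot be told apart. The labels give another account, in which mPGCLCs of both lines were gated as Stella-GFP positive and Esg1-tdTomato negative, reporters that belong to SGET. The paper describes E14 as free of reporters and BG5 as a Blimp1-GFP line. The account in the labels thus does not match these lines, and the gates of the methods are followed here. SGET mPGCLCs were not analysed here. The labels do not say that replicates came from separate differentiations, so p-values measure the spread between these libraries only.

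MicroRNAs are cut from a hairpin as a duplex of a 5p and a 3p arm, and the arm loaded into an Argonaute protein pairs with messenger RNAs mainly through its seed, bases 2 to 8. The hairpins of this X-linked region belong to a rodent-expanded, fast-evolving family between Slitrk2 and Fmr1 that is best known from testis and male germ cells. Close copies of a hairpin lie side by side there.

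All 10 hairpins lie on the minus strand of chromosome X between positions 66796805 and 66839125 (GRCm38, GENCODE vM21), a span of 42.3 kb in which no other annotated gene overlaps a member hairpin. They are not consecutive: 3 further annotated hairpins, Mir463, Mir878 and Mir465d, lie between them and are given with the neighbours. In order of position they are Mir741 (66796805 to 66796875), Mir880 (66800530 to 66800607), Mir881 (66801944 to 66802021), Mir871 (66810428 to 66810504) and Mir470 (66813951 to 66814025), followed by the 5 Mir465 hairpins, from Mir465c-1 (66825955 to 66826035) through Mir465b-1, Mir465c-2 and Mir465b-2 to Mir465 (66839052 to 66839125). Slitrk2 lies 135 kb away on one side and Fmr1 1839 kb away on the other. Reads gave 12 arms that could be told apart. The 3p arm is identical in all 5 Mir465 hairpins and is counted once as the shared Mir465 3p arm, and the 5p arms of Mir465b-1 and Mir465b-2, and those of Mir465c-1 and Mir465c-2, were likewise merged. Of these 12 arms, 11 passed the filter on low counts, and the 5p arm of Mir741 did not. An arm could pass through a single group in which it was high. Reads of the 3p arm of Mir470 and the 5p arm of Mir880 were in no library.

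The sequences are given because the arms are grouped by them. Mature sequences are from RefSeq (GRCm38.p6), in lower case with the seed in capitals; the 3 Mir465 5p arms share a seed, and copies with the same letters are shown once.
mmu-miR-465a-5p: uAUUUAGAauggcacugauguga
mmu-miR-465b-5p: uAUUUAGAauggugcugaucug
mmu-miR-465c-5p: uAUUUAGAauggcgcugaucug
mmu-miR-465a-3p: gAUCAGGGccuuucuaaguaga
mmu-miR-871-5p: uAUUCAGAuuagugccagucaug
mmu-miR-871-3p: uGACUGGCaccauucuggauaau
mmu-miR-470-5p: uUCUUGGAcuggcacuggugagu
mmu-miR-741-3p: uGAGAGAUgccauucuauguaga
mmu-miR-880-3p: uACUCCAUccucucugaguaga
mmu-miR-881-3p: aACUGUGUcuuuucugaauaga
mmu-miR-881-5p: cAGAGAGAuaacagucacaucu

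In 2 arms many or all reads began before the RefSeq start, and the most frequent read of each is printed below with the read's own seed in capitals. For the shared Mir465 3p arm this read begins 1 base before the RefSeq start. All 365 reads of Mir881-5p began 4 bases before the RefSeq start, which gives them the seed of miR-871-5p.
Mir465 3p read, 1 base early: uGAUCAGGgccuuucuaaguaga
Mir881-5p read: uAUUCAGAgagauaacagucac

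Libraries held 7421061 to 14444567 reads, of which 14.97% to 34.5% were assigned to microRNA arms. The cluster took 50361 reads over all libraries and 0.00397% to 0.402% of a library's microRNA reads. No cluster read was antisense to its hairpin, and none matched arms of different hairpins outside the merged ones. Reads of 1 sequence came in large steps: in the distribution of reads per sequence the lowest peak lay at 31 to 246 reads, depending on the library. PCR copies were not removed, so a sequence with about 100 reads may stem from few molecules, and every interval and floor below covers counting error only. Cluster sequences with at least 10 reads numbered 39 and 31 in the E14 mPGCLC libraries, 11 and 14 in BG5 mPGCLC, 12 and 14 in E14 non-PGCLC, 1 and 1 in BG5 non-PGCLC and 33 and 10 in SGET non-PGCLC.

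The summed level of the cluster, in reads per 1000000 reads of the library (RPM), was 1149 and 841 in E14 mPGCLC replicates 1 and 2, and 221 and 131 in BG5 mPGCLC. Of the non-PGCLC groups, E14 had 402 and 211 RPM, BG5 had 12.9 and 8.72 RPM, and SGET had 1199 and 788 RPM. The libraries of SGET non-PGCLC lay on either side of both E14 mPGCLC libraries, and those of BG5 non-PGCLC lay below all others. As group means with SD (n = 2), E14 mPGCLC had 995 ± 218, SGET non-PGCLC 994 ± 291, E14 non-PGCLC 306 ± 135, BG5 mPGCLC 176 ± 63.3 and BG5 non-PGCLC 10.8 ± 2.96 RPM. In this order E14 mPGCLC and SGET non-PGCLC overlapped, as did E14 non-PGCLC and BG5 mPGCLC, and the other neighbours did not. Scaled to the microRNA reads in place of all reads, the mean RPM values were 2997, 3221, 1462, 946 and 40.1 for the groups in the same order, and E14 non-PGCLC then lay above BG5 mPGCLC in every library (1179 and 1744 against 876 and 1016).

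**Figure D1:**
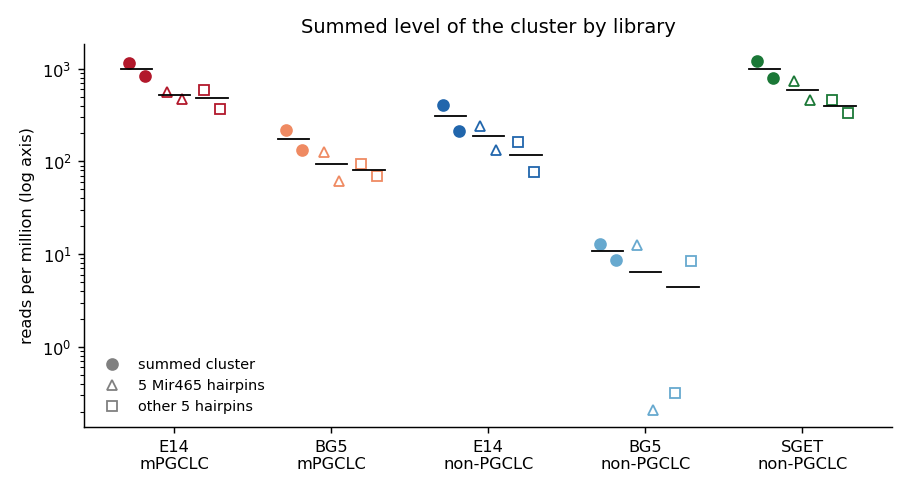
Level in RPM (log axis) in each of the 10 libraries by group, for the summed cluster (filled circles), the 5 Mir465 hairpins (triangles) and the other 5 hairpins (squares); black lines are means of 2 libraries. SGET non-PGCLC (994 RPM) stands level with E14 mPGCLC (995 RPM), and in BG5 non-PGCLC the triangles and squares of single libraries lie far apart.

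Within E14, the cluster stood 3.25-fold higher in mPGCLCs (2.05-fold per microRNA read), and within BG5 16.3-fold (23.6-fold per microRNA read). In E14, 8 of 12 arms were higher in both mPGCLC libraries than in both non-PGCLC libraries, where 24.8% of 561 microRNA arms were. In BG5 this held for 7 of 12, beside 17.3%. Of those 7, Mir465-5p had 1 and 2 reads in BG5 mPGCLC and 0 in BG5 non-PGCLC. Mir881-3p had 1 read in replicate 1 of both BG5 groups. For these arms the separation rests on fewer than 3 reads. All counts of arms belong to the contrast that chose the members and carry no test. In bulk samples fewer cells that express a microRNA and less of it per cell cannot be told apart.

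BG5 non-PGCLC cells had few reads of the cluster at all, 122 and 126. In replicate 1 a single sequence of Mir465b-5p gave 118 reads (96.7%), and in replicate 2 a single sequence of Mir470-5p gave 116 reads (92.1%). Mir465b-5p had 0 reads in replicate 2, and Mir470-5p had 2 in replicate 1. Without those arms, both libraries held at most 4 reads of any arm, where 3 reads correspond to 0.317 and 0.208 RPM. The ratio of 16.3 therefore rests on 1 sequence in each BG5 non-PGCLC library.

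The Mir465 arms gave 28750 of the 50361 cluster reads. The shared Mir465 3p arm was at 161 and 174 RPM in E14 mPGCLC, 23.8 and 34.2 in BG5 mPGCLC, 62.8 and 8.91 in E14 non-PGCLC and 333 and 324 in SGET non-PGCLC, and had 1 and 2 reads in the BG5 non-PGCLC libraries. Its lower SGET library was above every library of the other groups. Its replicates lay close together in E14 mPGCLC and SGET and far apart in E14 non-PGCLC, where they had 466 and 115 reads.

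The 5p arms with the shared AUUUAGA seed, led by Mir465c-5p and Mir465b-5p, did not single out SGET. Mir465c-5p stood at 228 and 126 RPM in E14 mPGCLC, 53.4 and 24.4 in BG5 mPGCLC, 70.3 and 65.5 in E14 non-PGCLC and 208 and 106 in SGET non-PGCLC. Mir465b-5p, which differs from it by 1 base outside the seed, stood at 158 and 137 RPM in E14 mPGCLC, 49.9 and 2.54 in BG5 mPGCLC, 62.3 and 53.5 in E14 non-PGCLC and 143 and 24.9 in SGET. Both arms were higher in both E14 mPGCLC libraries than in both E14 non-PGCLC libraries, and Mir465b-5p of SGET spanned the E14 non-PGCLC values. Mir465-5p, from the outermost hairpin, was uneven even between replicates, with 8.46 and 36.3 RPM in E14 mPGCLC, 46.2 and 6.28 in E14 non-PGCLC, 49.6 and 0 in SGET, and 1 and 2 reads in BG5 mPGCLC. Reads carrying the AUUUAGA seed made up 33.1% of all cluster reads.

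Mir871 and Mir470 lie next to the Mir465 block. Mir871-3p behaved evenly between replicates outside E14 non-PGCLC: 144 and 148 RPM in E14 mPGCLC, 15.4 and 18.9 in BG5 mPGCLC, 67.5 and 21.9 in E14 non-PGCLC and 185 and 188 in SGET non-PGCLC. It was above E14 mPGCLC in both SGET libraries, as was the shared Mir465 3p arm, whereas Mir470-5p ran the other way. Mir470-5p had 223 and 128 RPM in E14 mPGCLC, 23.1 and 25.1 in BG5 mPGCLC, 92.4 and 15.1 in E14 non-PGCLC and 93.7 and 65.2 in SGET non-PGCLC, so that both SGET libraries lay below both of E14 mPGCLC. Between those groups 2 of 12 arms were higher in SGET without overlap, beside 23.5% of 561 arms, and 2 (Mir470-5p and Mir881-3p) were lower, beside 20.1% of 561. Mir871-5p was read in 5 libraries, with 40.9 and 24.4 RPM in E14 mPGCLC and 39.3 RPM in SGET replicate 1 but 0 in replicate 2. It had 13.7 RPM in E14 non-PGCLC replicate 2 and 7.04 RPM in BG5 mPGCLC replicate 2, and 0 in the other replicate of each.

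Mir741, Mir880 and Mir881 lie at the other end of the span. Mir741-3p was read in 8 libraries and had 123 and 21.6 RPM in E14 mPGCLC, 40.5 and 10.8 in BG5 mPGCLC, 0 and 25.7 in E14 non-PGCLC and 126 and 81.3 in SGET, and its 5p arm had 39 reads in 1 library (E14 mPGCLC replicate 1). Mir881-3p was at 46.0 and 38.8 RPM in E14 mPGCLC and had no read in E14 non-PGCLC, where 3 reads would be 0.404 and 0.233 RPM. BG5 mPGCLC had 1 and 37 reads of it, and BG5 non-PGCLC 1 and 0. In SGET it had 63 reads (4.37 RPM) in replicate 1 and 0 in replicate 2, below both E14 mPGCLC libraries. Mir881-5p followed with 11.0 and 6.71 RPM in E14 mPGCLC, 4.30 in BG5 mPGCLC replicate 2, 12.2 in SGET replicate 1 and 0 elsewhere. Mir880-3p was read in 2 libraries, BG5 mPGCLC replicate 1 (118 reads, 14.3 RPM) and SGET replicate 1 (73 reads, 5.07 RPM), each time as 1 sequence with at least 10 reads.

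**Figure D2:**
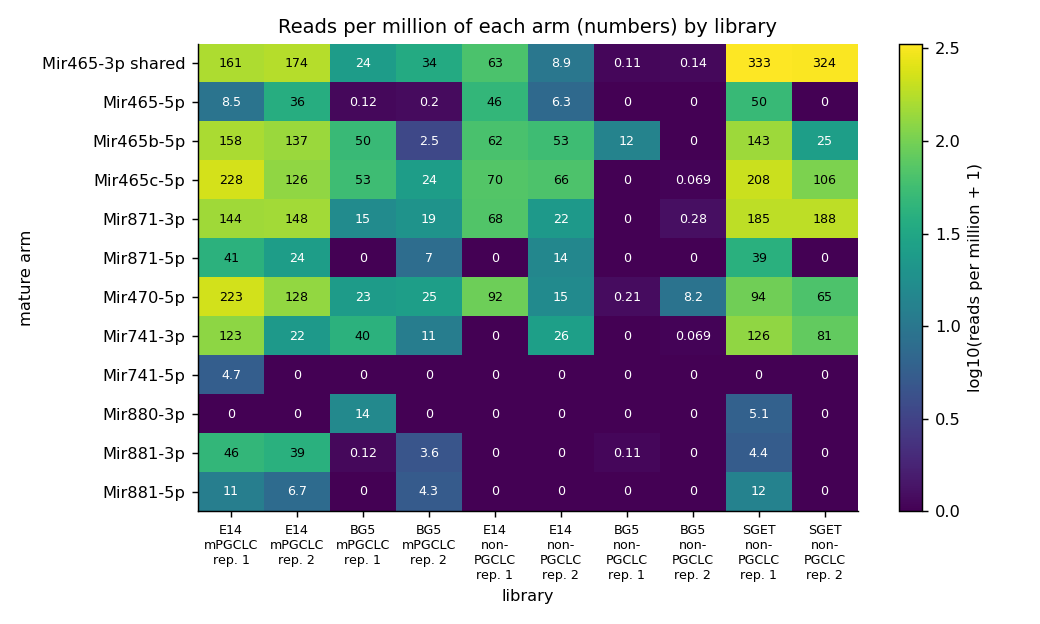
Level in RPM of the 12 arms (rows) in the 10 libraries (columns); colour is log10(RPM + 1) and the printed numbers are RPM. The shared Mir465 3p arm is highest in the 2 SGET columns (333 and 324), Mir881-3p is highest in the 2 E14 mPGCLC columns (46.0 and 38.8), and the BG5 non-PGCLC columns are near 0 except for 1 arm each.

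SGET non-PGCLC was compared with E14 non-PGCLC, the surrounding cells of another line, which differed in marker microRNAs as given below. The E14 libraries also belong to the contrast that chose the members. By summed level SGET stood 3.25-fold higher (994 ± 291 against 306 ± 135 RPM; 2.20-fold per microRNA read), without overlap in RPM. In RPM, 4 of 12 single arms were higher in both SGET libraries than in both E14 libraries, beside 22.3% of 561 arms. They were the shared Mir465 3p arm (9.17-fold), Mir741-3p (8.04-fold), Mir871-3p (4.16-fold) and Mir465c-5p (2.31-fold). The first 3 of these folds moved with the E14 non-PGCLC library kept. Without replicate 1 they were 36.9-fold, 4.02-fold and 8.49-fold, and without replicate 2 they were 5.23-fold for the shared Mir465 3p arm and 2.76-fold for Mir871-3p, with no read of Mir741-3p left to set a fold against. Per microRNA read, Mir741-3p stood 4.65-fold and Mir465c-5p 1.52-fold higher. With edgeR's quasi-likelihood test and Benjamini-Hochberg adjustment over 561 arms, 0 of 11 member arms passed an adjusted p of 0.05, beside 4.63% of all arms, and 1 of 11 had an unadjusted p under 0.05, beside 12.7% of all arms. That arm was the shared Mir465 3p arm, with a log2 difference of 2.75 (SE 0.94, edgeR adjusted p = 0.147). DESeq2 passed that arm alone among the members (log2 2.87, adjusted p = 0.0145), beside 13.0% of all arms. In edgeR this arm depended on the E14 non-PGCLC library kept. A group of 1 library is then assumed to vary like the other groups. The arm passed without replicate 1 (log2 4.62, adjusted p = 0.0216) and not without replicate 2 (log2 1.95, adjusted p = 0.547). Without replicate 2 edgeR passed Mir741-3p, which then had no read left in E14 non-PGCLC. Either way 1 of 12 member arms tested passed, beside 5.0% and 4.76% of all arms. Mir871-3p had a log2 difference of 1.59 (SE 1.12, adjusted p = 0.514), and Mir470-5p one of 0.13 (SE 1.32, adjusted p = 1). The median log2 difference of the 11 member arms was 1.59, and it was 0.00 over all 561 arms. Members were chosen in part for low levels in E14 non-PGCLC, which favours a positive median, so nothing is read from it. For 3 of the 11 arms, Mir880-3p, Mir881-3p and Mir881-5p, the fitted value is no bound. They had no read in E14 non-PGCLC, nor in SGET replicate 2. A floor of 3 reads per library, which covers counting error only, would place them above the median and leave it unchanged. The lowest peak of reads per sequence lay at 89 and 175 in the E14 non-PGCLC libraries. A single molecule may thus exceed that floor, and no bound is read here. Over the other 8 arms the median was 0.89. With the low-count filter applied to these 4 libraries alone, 8 member arms were left.

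BG5 mPGCLC was compared with E14 mPGCLC, sorted germ cell-like cells of the other line; all 4 libraries also belong to the contrast that chose the members. The summed cluster was 5.65-fold higher in E14 (995 ± 218 against 176 ± 63.3 RPM), and 3.17-fold higher per microRNA read. In E14 mPGCLC, 9 of 12 arms were above BG5 mPGCLC in both libraries, beside 22.5% of 561 arms. In the edgeR fit 0 of 11 arms passed, beside 10.2% of all arms, and 3 of 11 had an unadjusted p under 0.05, beside 17.8% of all arms. Those 3 were the shared Mir465 3p arm (log2 -2.60, SE 0.93, adjusted p = 0.103), Mir871-3p (log2 -3.18, SE 1.19, adjusted p = 0.125) and Mir465c-5p (log2 -2.41, SE 0.97, adjusted p = 0.160). The log2 difference was below 0 in 10 of 11 arms, with a median of -2.87, beside 0.00 over all arms. Members were chosen with these libraries and several arms come from the same hairpins, so nothing is read from this count or median. The exception was Mir880-3p, which had no read in E14 mPGCLC. DESeq2 passed 4 arms, all lower in BG5, beside 18.4% of 561 arms, and edgeR on the 4 libraries alone also passed 4, beside 16.2% of 456 arms. With reads divided by the size of the lowest peak, an alternative added after the data were seen, 5 of 6 member arms left passed here and 1 of 6 in the SGET comparison, beside 51.6% and 22.6% of 221 arms. Scaling by total reads in place of TMM moved the median of all arms to 0.16 in the SGET comparison and to 0.17 here, and the member medians from 1.59 to 2.06 and from -2.87 to -2.53. At the spread of these libraries the edgeR test recovered 21.5% of 200 arms changed 8-fold in simulated counts of the SGET comparison. Changed arms were drawn at random from the 561 tested, at any level. BG5 against E14 mPGCLC was not simulated, so this share need not hold for the member arms here.

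**Figure D3:**
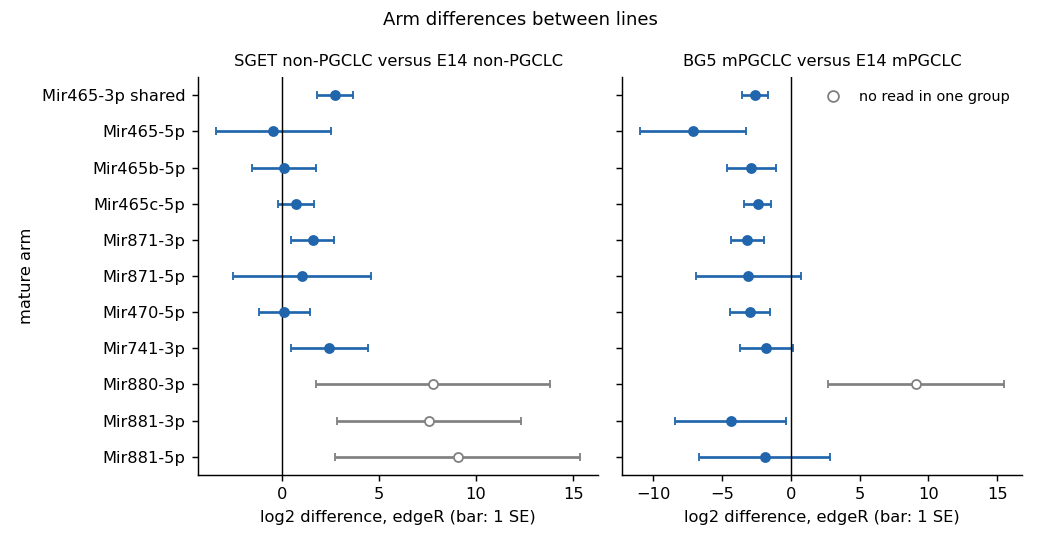
Log2 difference (x axis) with 1 SE for the 11 arms tested, SGET non-PGCLC against E14 non-PGCLC on the left and BG5 mPGCLC against E14 mPGCLC on the right; open grey points are arms with no read in one group, whose fitted value is no bound. On the right 10 of 11 points lie below 0, and on the left the shared Mir465 3p arm (2.75) has the smallest SE relative to its distance from 0.

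The make-up of the cluster's reads is described for 4 mPGCLC libraries (E14 and BG5) and 4 non-PGCLC libraries (E14 and SGET). Of these 8 libraries, 6 belong to the contrast that chose the members, and the choice decides which hairpins enter the shares, so the values carry no test. Line and cell type are partly confounded. BG5 non-PGCLC stayed out because it had almost no cluster reads, with 1 sequence of at least 10 reads per library. Mir465 hairpins gave 48.4% and 56.3% of cluster reads in E14 mPGCLC, 57.7% and 46.8% in BG5 mPGCLC, 60.2% and 63.7% in E14 non-PGCLC and 61.2% and 57.6% in SGET. The highest mPGCLC library thus overlapped the lowest non-PGCLC library by a small margin. Means were 52.3% and 60.7%, a difference of -8.39 percentage points.

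The share of 3p arms was lowest in E14 non-PGCLC and highest in SGET non-PGCLC. It was 41.2% and 45.5% in E14 mPGCLC, 42.6% and 51.5% in BG5 mPGCLC, 32.4% and 26.9% in E14 non-PGCLC, and 54.5% and 75.2% in SGET non-PGCLC. The 2 non-PGCLC groups thus lay on opposite sides of all 4 mPGCLC libraries. The Wilson 95% interval was widest in BG5 mPGCLC replicate 2, at 48.8% to 54.1%. The difference of means between cell types was -2.03 percentage points, and it turned positive without either SGET library (0.38 and 7.29 points). Within hairpins and over all libraries, the 3p arm took 85.6% of Mir871 reads, 99.2% of Mir741 reads, 68.5% of Mir881 reads and 41.2% of Mir465 reads. For Mir465 and Mir881 the arm with more reads differed between libraries. Mir465 reads were 71.3% 3p in SGET replicate 2 and 55.7% in BG5 mPGCLC replicate 2, but 6.64% in E14 non-PGCLC replicate 2. Mir881 reads were 80.7% and 85.2% 3p in E14 mPGCLC, but 26.4% in SGET replicate 1 and 45.7% in BG5 mPGCLC replicate 2.

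Mean read length was 22.4 nt in mPGCLC and 22.5 nt in non-PGCLC libraries (difference -0.073 nt), and the share of reads that match the hairpin to their last base was 93.0% and 90.2% (difference 2.70 points). The direction of the latter depended on E14 non-PGCLC replicate 2, at 80.0%. The other non-PGCLC libraries were at 92.3% to 96.3%, and the mPGCLC libraries at 87.6% to 99.5%. Reads that departed from the hairpin near their 3′ end and closed with U made up 11.7% of Mir465b-5p and 13.9% of Mir465c-5p reads, but 0.0507% of reads of the shared 3p arm. Those closing with A made up 16.2% of Mir871-5p and 11.7% of Mir741-3p reads.

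**Figure D4:**
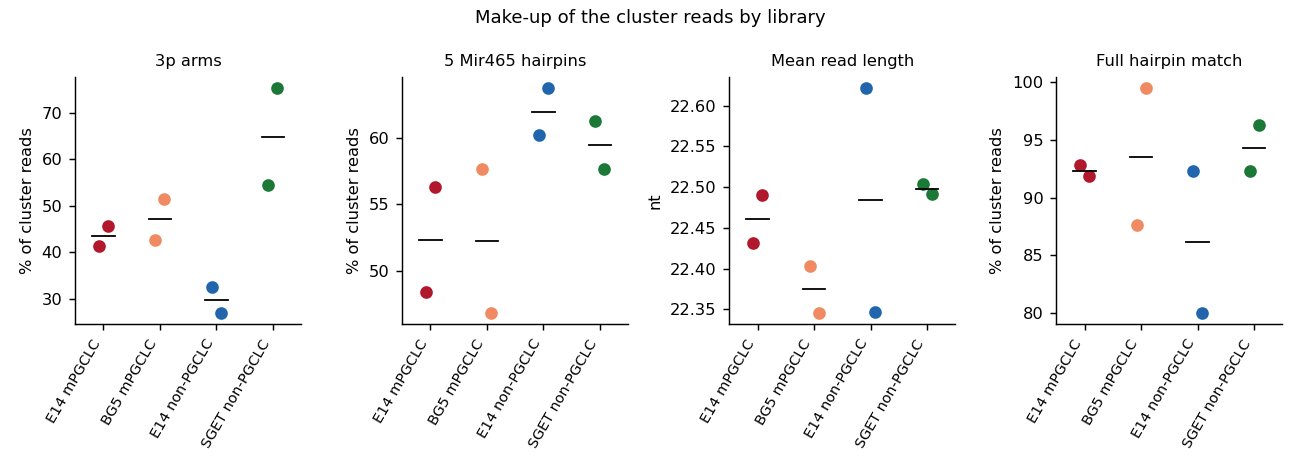
Make-up of the cluster's reads in 8 libraries: percentage from 3p arms, percentage from the 5 Mir465 hairpins, mean length in nt, and percentage matching the hairpin to the last base; axes do not start at 0, points are libraries and lines are means of 2. The 3p share is lowest in E14 non-PGCLC (32.4% and 26.9%) and highest in SGET (54.5% and 75.2%).

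Reads of the shared Mir465 3p arm had 2 common first bases, and the choice between them shifts the seed by 1 base, from AUCAGGG to GAUCAGG. Over all libraries 53.0% of its reads began at the RefSeq start and 45.8% began 1 base earlier, as in the read printed above. The early start was chosen for description after its values were seen and was not tested. It was found in 43.3% (Wilson 95% interval 41.9% to 44.7%) and 43.1% (41.4% to 44.8%) of the arm's reads in the SGET libraries, and in 45.0% (42.4% to 47.7%) and 64.5% (61.9% to 66.9%) in E14 mPGCLC. In BG5 mPGCLC it made up all 196 reads of replicate 1, which came from 1 sequence with at least 10 reads, and 20.9% (16.9% to 25.4%) in replicate 2. In E14 non-PGCLC it made up 41.8% (37.5% to 46.4%) in replicate 1 and 0 of 115 reads in replicate 2, where 3 reads would be a share of 2.61%. Those 115 reads came from 1 sequence with at least 10 reads, in a library whose lowest peak of reads per sequence lay at 175. The 2 libraries with a single start had 1 sequence of the arm with at least 10 reads each, so they could show no other value, and the SGET pair differed by less than its intervals. Mir741-3p also had several starts, with 77.7% of reads at the RefSeq start, 6.28% 1 base later and 16.0% 2 bases later. In the 5p arms of Mir465, Mir470 and Mir871, 97.4% to 100% of reads shared their first base.

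**Figure D5:**
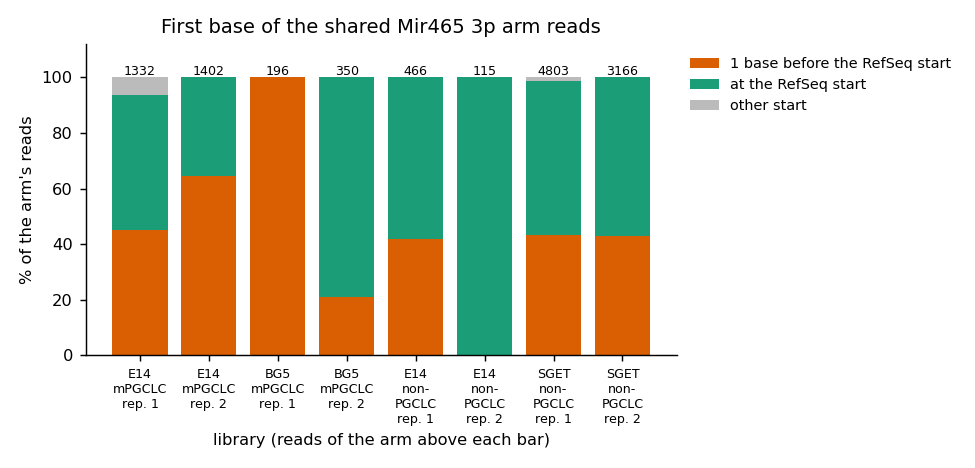
Percentage of reads of the shared Mir465 3p arm by their first base in 8 libraries, with the arm's reads above each bar; orange is 1 base before the RefSeq start, green the RefSeq start and grey any other. Both starts are present at 43.3% and 43.1% early in the 2 SGET libraries, and the libraries with 196 and 115 reads show a single start each.

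Within 250 kb of the members lie 9 other annotated hairpins, Mir743, Mir743b, Mir742, Mir883a, Mir883b, Mir471, Mir463, Mir878 and Mir465d, of which 8 had reads and 3 (Mir463, Mir878 and Mir465d) lie inside the members' span. Their summed arms stood at 191 and 131 RPM in E14 mPGCLC, 0.242 and 28.2 in BG5 mPGCLC, 66.6 and 77.9 in E14 non-PGCLC, 0.106 and 25.5 in BG5 non-PGCLC, and 103 and 252 in SGET non-PGCLC. As for the members, SGET and E14 mPGCLC libraries overlapped. The most abundant of these arms were Mir743-3p (31.2 RPM as the mean of 10 libraries), Mir878-3p (20.3), Mir743b-3p (14.5), Mir878-5p (4.71), Mir471-5p (4.13) and Mir743b-5p (3.38). Mir743b-3p had 36.9 and 41.6 RPM in E14 mPGCLC and 28.8 and 27.9 in SGET, beside 0 and 7.83 in E14 non-PGCLC and at most 1.56 elsewhere. Mir465d had 1 read.

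The 5 arms outside the window whose profile over the 10 libraries was most like that of the summed cluster were Mir291a-5p, Mir292-5p, Mir295-5p, Mir292-3p and Mir291a-3p, all of the miR-290 cluster on chromosome 7, the main microRNAs of mouse pluripotent cells. Likeness was the mean absolute difference of centred log2(RPM + 1) values, which was 0.567 to 0.666 for these arms, beside a median of 2.44 over the 541 arms compared. The libraries share depth and composition. Outside BG5 non-PGCLC, the miR-290 arms also make up a large part of the microRNA reads that fill the library total. The likeness is therefore a description.

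No messenger RNA was measured in these libraries, so cell identity could be compared with microRNAs only. Summed miR-290 cluster hairpins (8 of 9 with reads) were at 196304 to 223933 RPM in E14 mPGCLC, 48478 to 71193 in BG5 mPGCLC, 93158 to 134789 in E14 non-PGCLC, 7803 to 9058 in BG5 non-PGCLC and 145765 to 161233 in SGET non-PGCLC. Non-PGCLC cells of E14 and SGET thus held abundant miR-290 microRNAs, and those of BG5 held far fewer. Mesenchymal hairpins (Mir199 and Mir214, 4 of 4 with reads) were at 19.0 to 23.6 RPM in E14 mPGCLC, 116 to 144 in BG5 mPGCLC, 1060 to 1242 in E14 non-PGCLC, 13165 to 22031 in BG5 non-PGCLC and 425 to 427 in SGET non-PGCLC. The group with the lowest cluster level was the one with the highest mesenchymal level; the part of cell composition in the cluster's levels was not tested. Hairpins of the Mir302 and Mir367 cluster (5 of 5), also listed as microRNAs of pluripotent cells, did not follow miR-290. They were at 4880 to 5088 RPM in BG5 mPGCLC and 332 to 444 in E14 mPGCLC. In non-PGCLC cells they were at 389 to 438 in E14, 354 to 396 in BG5 and 75.6 to 171 in SGET, so SGET was lowest. Of 6 hairpins of blood and endothelium, 4 had reads, and Mir144 and Mir451a were at 0. Their sum was 130 to 140 RPM in E14 mPGCLC and 75.5 to 139 in BG5 mPGCLC. Among non-PGCLC groups it was 29.9 to 82.3 in E14, 217 to 242 in BG5 and 179 to 209 in SGET. Muscle hairpins (5 of 5) ranged from 5.97 to 232 RPM over all libraries.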

How the data were processed

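The deposited files hold raw counts: 1 line per distinct read sequence of a library with its number of reads. The authors used cutadapt (3.2) for adapters and for 4 random bases at either read end, which did not serve as molecular identifiers, and STAR (2.5.3a) to map reads to GRCm38; per the methods, libraries were run on 2 instrument types and merged, and the part from each was not entered. Reads of 18 to 26 nt were assigned here to arms of 1174 GENCODE vM21 hairpins, sense, first 18 nt exact and up to 2 later mismatches. Arms that share at least 50% of the reads of the smaller one were merged, giving 763 arms with reads. RPM is per library total of 7421061 to 14444567 reads. Counts were tested with edgeR 4.0.16 (quasi-likelihood, filterByExpr, TMM, 5 group means, Benjamini-Hochberg, threshold 0.05) in R 4.3.3; DESeq2 1.42.0 and other filters, scalings, read matches, samples and the replicate number as a block were alternatives. Wilson intervals are from scipy 1.17.1; exact permutation tests planned for 4 measures of read make-up are not reported, since they use the contrast that chose the members. Members, gene lists and tests were chosen with earlier results of these data known. Described are all member arms, those of at least 5% of cluster reads in a library in full (with Mir881 arms added after their values were seen), other hairpins within 250 kb and the 5 most alike arms. Division by copy number and counting sequences of 10 or more reads were chosen after seeing the data. Same-numbered replicates did not deviate together (r -0.112 to 0.0541), so numbers were not used as pairs. The edgeR code was tested on simulated counts and recovered 99.5% of 200 8-fold changes at a dispersion of 0.1.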

Additional observations from a re-analysis of the deposited data

How the results depend on the processing

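The count of member arms passing was 0 in both comparisons, and it stayed at 0 with total-read scaling, without a low-count filter, with a stricter filter, without later mismatches, with reads of 20 to 24 nt and without ambiguous reads. In SGET against E14 non-PGCLC it was 1 with DESeq2, 1 with reads divided by copy number, and 0 to 1 when a replicate was left out (1 without either E14 non-PGCLC replicate, of which the call without replicate 2, Mir741-3p, is set against a lone library with 0 reads of the arm), beside 4.02% to 7.83% of all arms in those fits, where the lone library is assumed to vary like the other groups. In BG5 against E14 mPGCLC it was 4 with DESeq2, 4 with only the 4 samples compared, 5 with reads divided by copy number, and 0 with any 1 replicate left out, beside 7.53% to 8.11% of all arms. The Mir465 share of cluster reads differed by -12.1 points with each sequence of 10 or more reads counted once, against -8.39 points. The cause of these differences was not tested. The 3p share, at -2.03 points, turned to 0.57 with each distinct sequence counted once and to 1.10 with those of 10 or more reads, and ranged from -8.82 to 7.29 when a library was left out; the full-match share ranged from -0.72 to 4.73. Of 290 values for single arms, 8 changed direction, none of them past the threshold. In SGET against E14 non-PGCLC, leaving out a library gave log2 ranges of -11.4 to 1.49 for Mir465-5p, -1.83 to 1.05 for Mir465b-5p, -0.64 to 1.83 for Mir470-5p and -9.64 to 10.7 for Mir871-5p, and in BG5 against E14 mPGCLC -2.64 to 0.029 for Mir741-3p. The values of -11.4 for Mir465-5p and of -9.64 and 10.7 for Mir871-5p come from fits in which 1 group had no read of the arm left, so they are no measure of size. The shared Mir465 3p arm ranged from 1.95 to 4.62 in the first comparison.

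With the replicate number as a block, the count of member arms was 0 in both comparisons. Over all arms, 35 passed in the first in place of 26 and 67 in the second in place of 57. Mir465b-5p had a log2 difference of -0.94 in SGET against E14 non-PGCLC under the block, against 0.11 without it. Same-numbered libraries did not deviate together.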
